A study of Mus musculus with 3 samples.

Results

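Transcription factors that guide interneurons born in the medial ganglionic eminence (MGE) were read in RNA taken from tagged ribosomes of adult mouse cortex. The set holds Nkx2-1, Lhx6, Lhx8, Sox6, Satb1, Maf and Etv1, which were matched by symbol. All 7 were found among the 32532 gene symbols of the count tables. The 3 libraries formed 1 group, immunopurified (IP) material from the whole cerebral cortex of adult mice that carry both Htr3a-Cre (founder line NO176) and the allele Rosa26-LSL-EGFP/Rpl10a, named replicates 1, 2 and 3. In this cross Cre under Htr3a regulatory sequence removes a stop cassette at Rosa26, and the cells then make the ribosomal protein Rpl10a fused to EGFP, which antibodies pull down together with the messenger RNA on the ribosomes (translating ribosome affinity purification, TRAP). The reporter marks every cell that has expressed Cre at any time, also one that no longer does. Unpurified cortex was not analysed here, so every comparison is between genes of 1 library. It is not stated in the labels whether replicates came from separate or pooled animals, so the spread between them may be technical.

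The medial and caudal ganglionic eminences are swellings of the embryonic ventral forebrain that give rise to most inhibitory neurons of the cortex. Medial eminence progenitors are specified by sonic hedgehog signalling and the homeobox factor Nkx2-1, which switches on Lhx6 and Lhx8. Lhx6, a LIM homeobox factor, stays on in the migrating and mature Pvalb and Sst interneurons, while Lhx8 marks the branch that becomes cholinergic neurons of the basal forebrain. Sox6 and Satb1 act after Lhx6 in the positioning and maturation of Sst and Pvalb cells, and Maf acts in the choice between these fates. Etv1 (also called Er81) is an ETS factor of some interneurons and of layer 5 pyramidal cells. Cells marked by Htr3a are mostly of caudal origin, so the question put to the data was how much ribosome-bound RNA of the medial eminence factors this driver's cells hold. In material from many cells, fewer cells of a type and less RNA per cell cannot be told apart.

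The libraries held 14383545, 13951332 and 14461053 counts on genes in replicates 1, 2 and 3. Inhibitory markers were high, with the GABA-synthesising enzyme Gad2 at 2195 ± 111 TPM (counts per length of merged exons as a share of each library; SD over the 3 libraries, n = 3, here and below). Gad1, the other GABA-synthesising enzyme, was at 519 ± 39.0 TPM and the vesicular transporter Slc32a1 lowest at 234 ± 53.6 TPM. Markers of excitatory neurons were present too, with the kinase subunit Camk2a at 2543 ± 302 TPM, a higher mean than that of Gad2, and the vesicular glutamate transporter Slc17a7 at 196 ± 56.1 TPM. The defining markers of Pvalb and Sst cells were also there, at 88.1 ± 34.4 TPM for Pvalb and 8250 ± 552 TPM for Sst.

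Windows around annotated starts of Nkx2-1, Lhx6 and Lhx8 are shown because Nkx2-1 acts upstream of the other 2, which are close relatives found at very different levels. The windows come from RefSeq on GRCm38.p6, cover 250 bases before to 50 after the start, and are written 5′ to 3′ on the minus strand, the gene strand of all 3. For Lhx6, which has 3 windows, the most upstream one is shown. Capitals mark TCAAG or its reverse complement CTTGA, letters that hold the CAAG core known to be bound by NKX2-1.
Nkx2-1, chr12:56536859-56537158: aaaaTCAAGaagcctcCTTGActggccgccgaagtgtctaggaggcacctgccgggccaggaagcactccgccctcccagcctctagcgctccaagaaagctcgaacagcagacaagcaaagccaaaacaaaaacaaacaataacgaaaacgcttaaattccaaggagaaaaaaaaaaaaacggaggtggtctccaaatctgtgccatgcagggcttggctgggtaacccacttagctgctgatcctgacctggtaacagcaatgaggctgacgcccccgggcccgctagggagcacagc
Lhx6, chr2:36105359-36105658: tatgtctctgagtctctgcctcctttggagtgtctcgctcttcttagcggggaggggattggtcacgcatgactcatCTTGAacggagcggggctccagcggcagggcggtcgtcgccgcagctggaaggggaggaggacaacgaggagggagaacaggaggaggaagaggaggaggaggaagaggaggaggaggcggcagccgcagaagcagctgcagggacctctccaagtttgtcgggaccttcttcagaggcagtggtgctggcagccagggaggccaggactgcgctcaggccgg
Lhx8, chr3:154330511-154330810: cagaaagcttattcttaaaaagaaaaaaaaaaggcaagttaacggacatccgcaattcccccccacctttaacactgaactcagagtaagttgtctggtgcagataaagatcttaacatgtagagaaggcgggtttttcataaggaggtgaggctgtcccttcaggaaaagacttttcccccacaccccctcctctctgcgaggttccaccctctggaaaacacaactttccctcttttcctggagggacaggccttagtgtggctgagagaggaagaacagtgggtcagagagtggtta
The letters TCAAG or CTTGA occurred 2 times in the Nkx2-1 window, 1 time in each of the 3 Lhx6 windows and 0 times in the Lhx8 window. The core CAAG without a T before it was neither marked nor counted. It stands in small letters in all 3 windows shown, that of Lhx8 included. Of the 18 windows listed for 6 of the regulators, 9 held them on either strand, against 40.7% of all 32851 windows in the table. TAATTA, a palindrome that many homeodomain proteins bind, stood in 0 of the 18 windows and in 5.29% of all windows. These matches describe letters in the windows and say nothing about binding.

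Nkx2-1, the factor that specifies the eminence, was present at a low level. Its counts were 93, 98 and 47 in replicates 1, 2 and 3, or 11.9, 12.3 and 5.73 TPM (9.95 ± 3.66). Replicates 1 and 2 were close together and replicate 3 stood below them. In GRCm38 it spans positions 56531958 to 56536908 of chromosome 12.

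Lhx6, which Nkx2-1 activates, was far higher. Its counts were 943, 1440 and 991, or 71.2, 106.5 and 71.4 TPM (83.0 ± 20.3). Replicate 2 was the high library and the others nearly coincided. It spans 36081953 to 36105408 of chromosome 2, and 2.16% of its exon bases are shared with Gm27953, a misc_RNA gene annotated on the same strand.

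Lhx8 was at the limit of detection. It had 2, 4 and 0 counts, or 0.287, 0.561 and 0 TPM, and the 0 allows up to 3 counts, which is 0.207 CPM (counts scaled by library total) in replicate 3. No fold change is given for a gene at this depth. It spans 154306294 to 154330659 of chromosome 3.

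The postmitotic partners of Lhx6 stood apart from each other. Sox6, an HMG-box factor, had 701, 807 and 515 counts, or 17.1, 19.3 and 12.02 TPM (16.2 ± 3.75), with replicate 3 lowest. Satb1, a chromatin organiser, had 3421, 3732 and 3586 counts, or 65.2, 69.7 and 65.3 TPM (66.7 ± 2.58), the narrowest spread relative to its mean of the 7. Sox6 lies on chromosome 7 from 115470872 to 116038796 and Satb1 on chromosome 17 from 51736187 to 51833290, where Gm36931 and Gm6934 share 1.49% of its exon bases.

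Maf, a basic leucine zipper factor, was the highest of the set, and Etv1 stood in its middle. Maf had 4133, 2879 and 2687 counts, or 182, 124 and 113 TPM (140 ± 37.1), with replicate 1 well above the others. Etv1 had 1067, 956 and 1008 counts, or 29.1, 25.6 and 26.2 TPM (27.0 ± 1.89), and its libraries lay close together. Maf lies on chromosome 8 from 115682942 to 115707794, where 5.34% of its exon bases are also covered by the antisense gene Gm15655, and Etv1 on chromosome 12 from 38779380 to 38870484. No source used here gives the strand setting of the counts, so Maf reads and antisense reads in that stretch cannot be told apart.

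**Figure D1:**
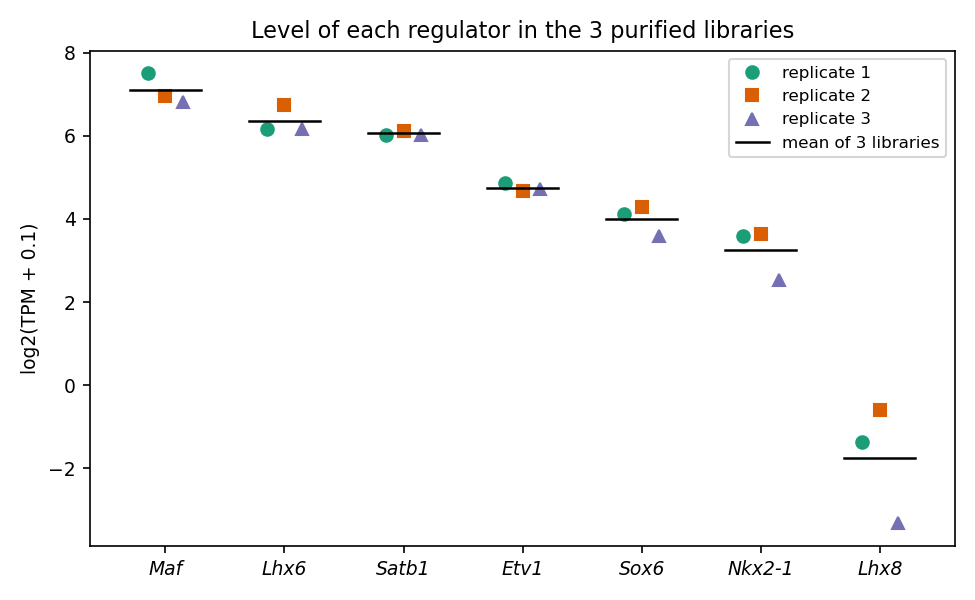
Level of each regulator in the 3 libraries as log2(TPM + 0.1), with 1 symbol per replicate and a line at the mean. Maf, Lhx6 and Satb1 lie on top, Nkx2-1 stands well below them, and Lhx8 lies near the level of no counts.

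With lengths of merged exons, the order from high to low was Maf, Lhx6, Satb1, Etv1, Sox6, Nkx2-1 and Lhx8. Of the 21 pairs, 17 differed past the threshold (limma on differences of log2(TPM + 0.1) within libraries, adjusted p under 0.05), against 82.6% of all 100205 pairs of a regulator with another gene, so the share of the set is near that of all genes. Among neighbours in the order, Lhx6 minus Maf was -0.74 (SD 0.57; limma, adjusted p = 0.0776) and Lhx6 minus Satb1 was 0.29 (SD 0.28; limma, adjusted p = 0.503), so that neither pair differed past the threshold. For Lhx6 minus Maf this held in 7 of 10 alternatives. It passed in the rest, among them principal transcripts as length (-1.58; limma, adjusted p = 0.00207). Sox6 minus Etv1 at -0.76 (SD 0.36; limma, adjusted p = 0.0887) and Nkx2-1 minus Sox6 at -0.75 (SD 0.28; limma, adjusted p = 0.179) did not either. Sox6 minus Etv1 passed with the longest transcript as length (-1.001; limma, adjusted p = 0.0221) and with a pseudocount of 1 (-0.73; limma, adjusted p = 0.0239), and was 0.57 with principal transcripts (limma, adjusted p = 0.189). With these Nkx2-1 minus Sox6 was -3.07 (limma, adjusted p = 1.27e-08), past the threshold, and with no length it was -3.11. Its lack of a call held in 7 of 10 alternatives. Satb1 minus Etv1 did differ, at 1.31 (SD 0.14; limma, adjusted p = 0.00115), a 2.47-fold higher level of Satb1 with merged exons, and the difference was 2.63 with principal transcripts.

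Lhx6 was 8.58-fold above Nkx2-1, the factor that starts its expression in the embryo (log2 difference 3.10, SD 0.52; limma, adjusted p = 1.84e-08). Per library the difference was 2.57, 3.11 and 3.62 in replicates 1, 2 and 3. The call stayed without moderation of the spread (limma, adjusted p = 0.0267) and under the other 9 alternatives tried, where the difference ran from 2.84 to 3.85. Lhx6 was also 3.02-fold above Etv1 (log2 difference 1.59, SD 0.41; limma, adjusted p = 0.00268), a call lost when lengths were left out (0.13; limma, adjusted p = 0.744). Maf was 5.06-fold above Etv1 (log2 difference 2.34, SD 0.27; limma, adjusted p = 0.000345), and Sox6 lay 8.57-fold below Maf (-3.10, SD 0.38; limma, adjusted p = 2.90e-05).

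Satb1 minus Maf was -1.03 (SD 0.39; limma, adjusted p = 0.0145). This call was lost without replicate 2 (limma, adjusted p = 0.0988) and without moderation (limma, adjusted p = 0.0616), and the difference was 0.20 with the longest transcript as length (limma, adjusted p = 0.567). It held in 5 of the 10 alternatives. With principal transcripts Satb1 stood at 217 and Maf at 229 TPM, and with no length the difference was positive as well. Nkx2-1 minus Etv1 at -1.51 (SD 0.59; limma, adjusted p = 0.00824) was lost without moderation as well (limma, adjusted p = 0.0663). Lhx6 minus Sox6 was 2.35 (SD 0.27; limma, adjusted p = 1.39e-07), Sox6 minus Satb1 -2.07 (SD 0.32; limma, adjusted p = 0.000552), Nkx2-1 minus Satb1 -2.81 (SD 0.59; limma, adjusted p = 0.000797) and Nkx2-1 minus Maf -3.84 (SD 0.48; limma, adjusted p = 8.94e-06). Lengths and single libraries moved several of these called values. Over the 10 alternatives Sox6 minus Maf ran from -3.31 (without replicate 2) to -2.11 (principal transcripts). Sox6 minus Satb1 ran from -2.90 (longest transcripts) to -1.88 (without replicate 3), and Maf minus Etv1 from 1.65 (no length) to 2.68 (principal transcripts). From no length to without replicate 3, Nkx2-1 minus Satb1 ran from -5.54 to -2.47, Nkx2-1 minus Maf from -5.37 to -3.63 and Nkx2-1 minus Etv1 from -3.72 to -1.17. The remaining 6 pairs hold Lhx8, which lay below each of the others past the threshold.

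**Figure D2:**
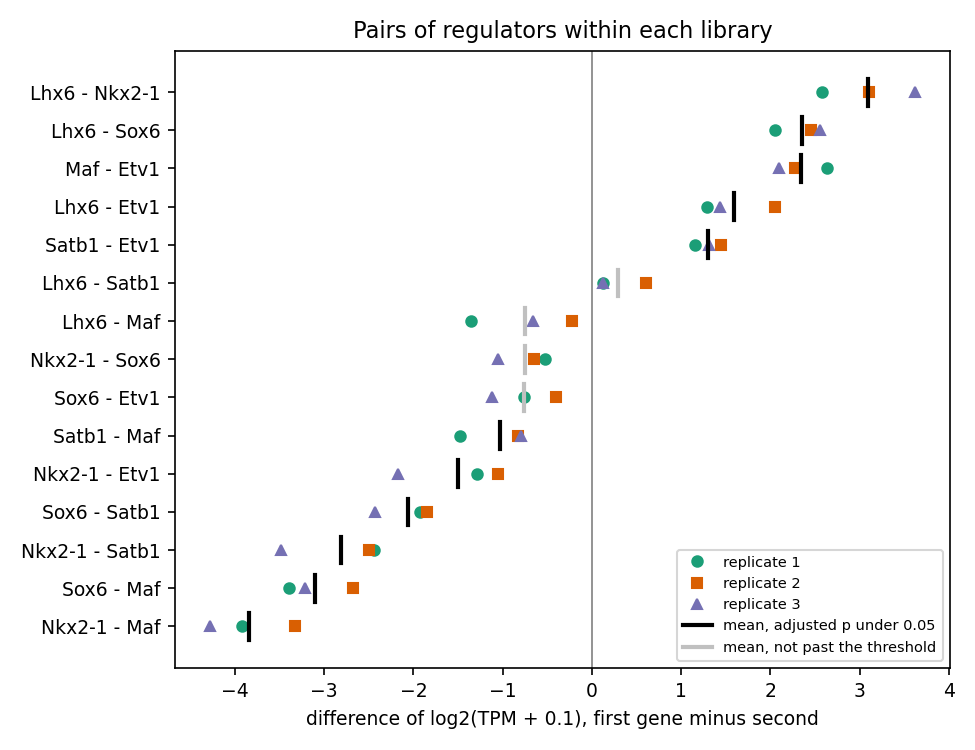
Difference of log2(TPM + 0.1) within each library for the pairs of regulators without Lhx8, first gene minus second, with 1 symbol per replicate and a bar at the mean, black where the adjusted p was under 0.05. Lhx6 minus Nkx2-1 is the highest at 3.10 and Nkx2-1 minus Maf the lowest at -3.84.

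The order in the upper part of the set rests on the length used. The merged exons of Satb1 cover 19027 nt, but its longest transcript has 6243 nt and its transcript with the longest coding sequence (principal transcript) 3748 nt. Satb1 stood at 154 ± 5.90 TPM with the longest transcript and at 217 ± 8.18 TPM with the principal one, and Lhx6 minus Satb1 turned to -0.85 and -1.53, both past the threshold (limma, adjusted p = 0.0392 and 0.00107). Sox6, with 14832 nt of merged exons and a principal transcript of 2903 nt, stood at 53.0 ± 12.2 TPM with the principal one. It was then no longer separated from Lhx6 (log2 difference of Lhx6 minus Sox6 0.53; limma, adjusted p = 0.224). Lhx6 itself moved little, at 86.9 ± 21.2 and 76.5 ± 18.6 TPM, and Maf was at 137 ± 36.5 and 229 ± 60.7 TPM. Etv1 was at 41.3 ± 2.91 and 34.97 ± 2.45 TPM. Nkx2-1 at 7.63 ± 2.81 and 6.45 ± 2.37 TPM and Lhx8 were the lowest pair with each length.

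**Figure D3:**
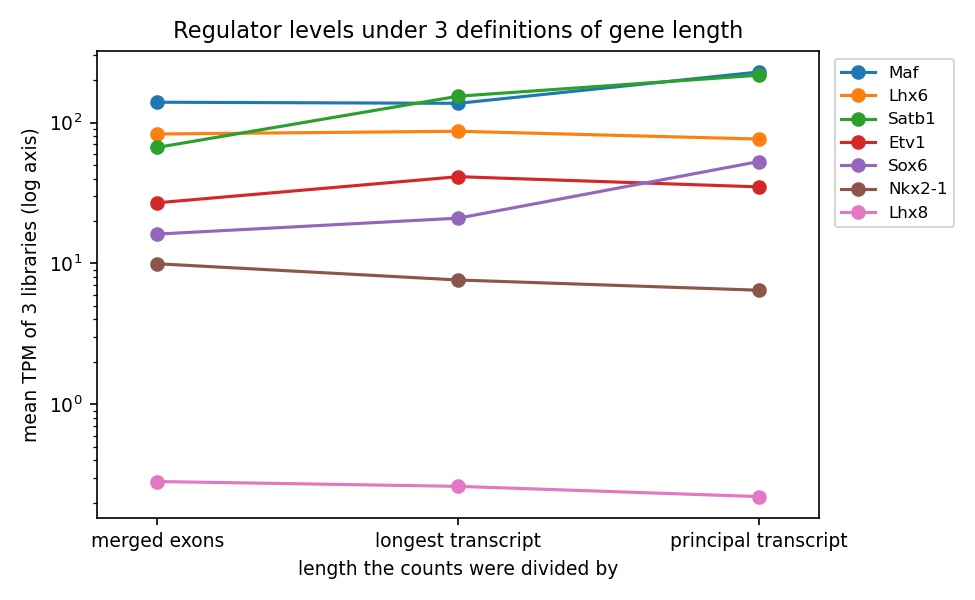
Mean TPM over 3 libraries (log axis) of each regulator with counts divided by the merged exons, the longest transcript or the principal transcript. Satb1 is at 66.7, 154 and 217 TPM and Sox6 at 16.2, 20.97 and 53.0 TPM, while Lhx6 stays between 76.5 and 86.9 TPM.

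Against the 14315 other genes entered in the fit, which had at least 10 counts over the libraries, Maf lay above 81.9% and below 5.19% past the threshold. Satb1 lay above 72.8% and below 15.7%, and Lhx6 above 72.2% and below 9.78%. Etv1 was above 52% and below 31.5%, Sox6 above 37.6% and below 37.6%, and Nkx2-1 above 26.8% and below 45.8%. Lhx8 was above 0% and below 89.4%. The median of the 7 regulators was 29.1, 25.6 and 26.2 TPM in replicates 1, 2 and 3, against 15.3, 16.8 and 17.5 TPM over all genes tested. At least 1 TPM in 3 of 3 libraries was reached by 6 of the 7 (85.7%), against 84.9% of all genes tested.

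Relatives of the same protein families were read beside the regulators. In the LIM homeobox family, Lhx6 exceeded Lhx9 35.4-fold (log2 difference 5.15, SD 0.03; without moderation, limma, adjusted p = 0.0145), and Lhx9 had a mean of 2.24 TPM. With principal transcripts as length this difference was 3.51. Lhx2, a factor of cortical progenitors and upper-layer neurons, stood at 31.2, 38.3 and 66.5 TPM, with replicate 3 highest. Lhx6 minus Lhx2 was 0.92 (SD 0.72; limma, adjusted p = 0.0285), a call lost without replicate 1 (limma, adjusted p = 0.144), without replicate 2 (limma, adjusted p = 0.204) and without moderation (limma, adjusted p = 0.183). Lhx4, Isl2 and Lmx1a had 0 counts in 3 of 3 libraries. Among the relatives of Nkx2-1, Nkx2-3, Nkx2-4, Nkx2-5 and Nkx2-6 had 0 counts, and Nkx2-2, a factor of the oligodendrocyte lineage and ventral progenitors, had 2, 5 and 8.

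Among the ETS relatives of Etv1, 1 was higher and 1 far lower. Etv5 stood at 174, 146 and 155 TPM (158 ± 14.5), and Etv1 lay 5.84-fold below it (-2.54, SD 0.03; limma, adjusted p = 8.62e-05). The difference was smaller with other lengths, at -1.58 with the longest transcript, -1.65 with the principal transcript and -0.85 with no length, each past the threshold. Etv4, the other close relative, had 6, 9 and 3 counts.

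In the SoxD group, Sox5, a factor of deep-layer projection neurons, was at 44.7, 42.1 and 33.5 TPM (40.1 ± 5.85). Sox6 lay 2.50-fold below Sox5 (-1.32, SD 0.18; limma, adjusted p = 0.00295), but the difference was 0.04 with principal transcripts as length (limma, adjusted p = 0.933). Sox13 stood at 1.83 ± 0.276 TPM, 8.31-fold under Sox6 (3.06, SD 0.47; without moderation, limma, adjusted p = 0.0255), with a difference of 5.15 with principal transcripts.

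**Figure D4:**
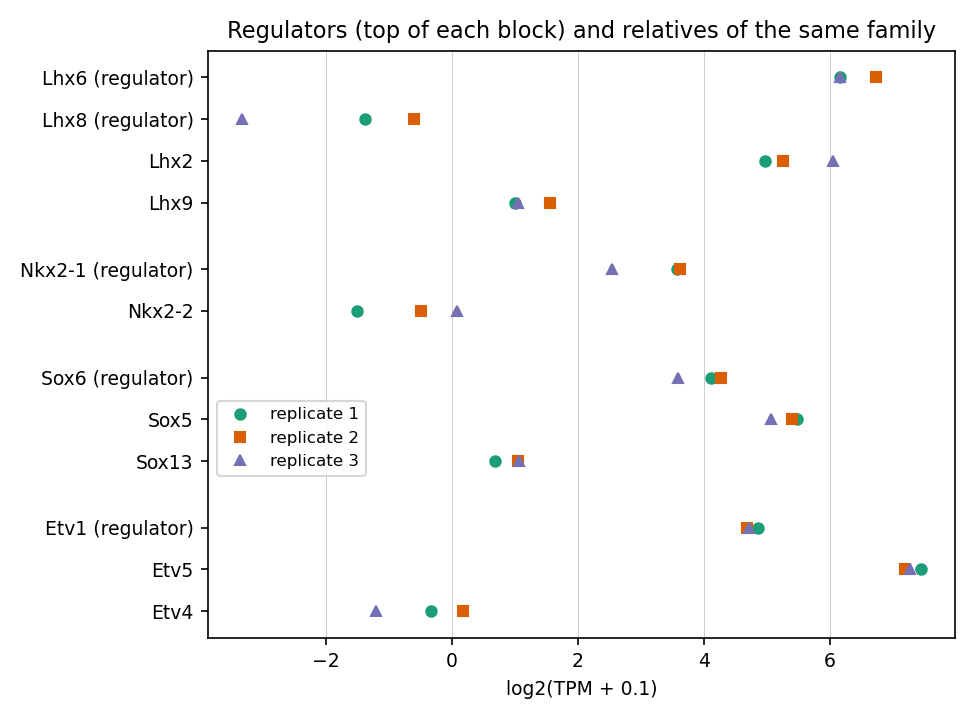
Level of Lhx6, Lhx8, Nkx2-1, Sox6, Etv1 and relatives of their families as log2(TPM + 0.1), 1 symbol per replicate, with the regulator at the top of each block. Etv5 lies to the right of Etv1 and Sox5 to the right of Sox6, while Lhx8, Nkx2-2 and Etv4 lie far to the left.

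LIM homeobox proteins act through the bridging proteins Ldb1 and Ldb2, and Lmo proteins compete for them. Ldb2 was at 140 ± 11.5 TPM and Ldb1 at 24.0 ± 3.26 TPM. Lhx6 lay 3.41-fold above Ldb1 (log2 difference 1.77, SD 0.49; limma, adjusted p = 3.01e-05), and its difference from Ldb2 was -0.77 (SD 0.38; limma, adjusted p = 0.0671, and 0.0269 without replicate 2). Lmo4 at 158 ± 8.87 TPM and Lmo3 at 133 ± 12.3 TPM led the Lmo genes. Lhx6 minus Lmo4 was -0.95 (SD 0.41; limma, adjusted p = 0.0235), a call lost without replicate 1 (limma, adjusted p = 0.113) or replicate 3 (limma, adjusted p = 0.105), without moderation (limma, adjusted p = 0.0751) and with no length (-0.51; limma, adjusted p = 0.191). Lhx6 minus Lmo3 was -0.71 (SD 0.34; limma, adjusted p = 0.0950), which passed without replicate 2 (limma, adjusted p = 0.0360) and with principal transcripts (-1.26; limma, adjusted p = 0.00184). Lmo2 stood at 33.6 ± 10.01 TPM (Lhx6 minus Lmo2 1.32, SD 0.53; limma, adjusted p = 0.00169, and 0.0682 without moderation, with a difference of 2.46 when lengths were left out), and Lmo1 was the lowest of these cofactors at 1.96 ± 1.55 TPM.

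The sonic hedgehog pathway, which lies upstream of Nkx2-1, had a median of 5.24, 4.34 and 4.32 TPM over 7 genes. The receptor Ptch1 led it at 22.0 ± 3.51 TPM, then the ligand Shh at 9.56, 16.0 and 21.5 TPM, lowest in replicate 1. The effector Gli3 stood at 5.53 ± 0.960 TPM, the inhibitor Sufu at 4.63 ± 0.522 TPM, and Gli1, a target that reports pathway activity, had 1, 4 and 0 counts. Of the 6 hedgehog genes with enough counts to be tested, Nkx2-1 lay above 2 (33.3%) and below 1 (16.7%) past the threshold, against 26.8% and 45.8% of all genes tested. Lhx6 lay above 6 of the 6, against 72.2% of all genes tested. Without moderation Nkx2-1 lay above 1 and below 0 of the 6, and Lhx6 above 6.

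Factors that the medial and caudal eminences share had a median of 25.5, 26.5 and 23.8 TPM over 10 genes. The homeobox factors Dlx1 at 124 ± 10.7 TPM and Dlx5 at 123 ± 10.9 TPM led them, and Gsx1 was the lowest with 1, 3 and 0 counts. Of the 9 that could be tested, Maf lay above 7 (77.8%, against 81.9% of all genes tested), Lhx6 above 6 (66.7%, against 72.2%), Satb1 above 6 (66.7%, against 72.8%) and Nkx2-1 above 2 (22.2%, against 26.8%). These shares of Maf, Lhx6, Satb1 and Nkx2-1 are near those over all genes. Etv1 lay above 3 (33.3%, against 52%) and below 4 (44.4%, against 31.5%). Sox6 lay above 2 (22.2%, against 37.6%) and below 4 (44.4%, against 37.6%). Nkx2-1 lay below 6 (66.7%, against 45.8%) and Satb1 below 2 (22.2%, against 15.7%). Without moderation Lhx6 and Satb1 lay above 4 each, Nkx2-1 lay above 1 and below 4, and Sox6 lay above 1 and below 5.

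Genes that act downstream in migration and fate had a median of 49.8, 41.8 and 37.7 TPM over 8 genes. Zeb2, a zinc-finger factor that directs medial eminence cells toward the cortex, led them at 367, 295 and 266 TPM (309 ± 51.6). The neuregulin receptor Erbb4 was at 79.2 ± 7.52 TPM. The chemokine receptor Cxcr4, which is lost in migrating cells that lack Lhx6, was lowest at 1.83 ± 0.268 TPM in these adult libraries. Lhx6 lay above 4 (50%) and below 2 (25%) of the 8, against 72.2% and 9.78% of all genes tested, and below 1 without moderation.

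Genes listed as markers of mature medial eminence interneurons had a median of 73.0, 106 and 99.5 TPM over 12 genes, lowest in replicate 1. The peptide genes Sst and Npy (3218 ± 434 TPM), the synaptic organiser Elfn1 (478 ± 76.4 TPM) and the potassium channel Kcnc1 (270.1 ± 21.6 TPM) led them, and Chodl, found in Sst cells with long-range axons, was lowest at 0.778 ± 0.4345 TPM. Lhx6 lay above 5 (41.7%) and below 4 (33.3%) of them, against 72.2% and 9.78% of all genes tested. Without moderation it lay above 3 and below 5. Which cells the reads of these listed genes came from was not tested.

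The list of caudal eminence regulators had a median of 58.5, 63.2 and 56.9 TPM, against the 25.6 to 29.1 TPM of all 7 medial ones, Lhx8 included. Of the 42 pairs of a medial regulator other than Lhx8 with 1 of 7 caudal genes, the medial factor was lower past the threshold in 20 and higher in 12 (limma). Against all genes tested, the same 6 regulators were lower in 24.3% of pairs and higher in 57.2%. With principal transcripts as length the medial factor was lower in 17 and higher in 19 of the 42. Maf lay above 4 and below 1 of the 7, Lhx6 above 3 and below 2, Satb1 above 3 and below 3, Etv1 and Sox6 each above 1 and below 4, and Nkx2-1 above 0 and below 6. Without moderation Maf lay above 4 and below 2, Lhx6 above 3 and below 1, and Satb1 above 4 and below 3. Nkx2-1 then lay above 0 and below 4, and the counts of Etv1 and Sox6 stayed. The caudal list was led by the RNA-binding protein Adarb2 at 347 ± 70.3 TPM, Prox1 at 220.0 ± 43.1 TPM, Nr2f2 at 122 ± 16.6 TPM and Npas3 at 59.6 ± 3.28 TPM, with Sp8 lowest at 8.18 ± 0.970 TPM. Each of the 6 medial factors lay below Adarb2, so this gene gave 6 of the 20 lower calls. Each of them except Nkx2-1 lay above Sp8.

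The regulators were not highest in the same library. With library sizes scaled by TMM (trimmed mean of M-values), Lhx6 reached 128% of its own mean in replicate 2, against 87.2% and 84.8% in replicates 1 and 3. Nkx2-1 was at 121%, 123% and 56.6% and Sox6 at 108%, 119% and 73.2%, so both were lowest in replicate 3. Maf was highest in replicate 1, at 132% against 88.5% and 79.5%. Satb1 stayed between 96.4% and 104%, and Etv1 between 94.5% and 110%. The ratio of the highest to the lowest library was 2.17 for Nkx2-1, 1.66 for Maf, 1.63 for Sox6, 1.51 for Lhx6, 1.16 for Etv1 and 1.08 for Satb1, against a median of 1.41 over 12949 genes averaging 1 CPM or more.

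Counts of 6 of the 6 regulators that reached 1 CPM varied by more than counting error (chi-square test with Benjamini-Hochberg adjustment over all genes), but so did 74.3% of all genes tested. Maf had the strongest departure (adjusted p = 1.08e-109) and kept its call without any 1 of the 3 libraries. Lhx6 (adjusted p = 1.45e-28) lost it without replicate 2 (adjusted p = 0.530), Nkx2-1 (adjusted p = 2.16e-05) without replicate 3 (adjusted p = 0.944) and Sox6 (adjusted p = 3.77e-17) without replicate 3 (adjusted p = 0.0822). Satb1 (adjusted p = 0.00541) lost it without replicate 2 (adjusted p = 0.178) or replicate 3 (adjusted p = 0.0733), and Etv1 (adjusted p = 0.00170) without replicate 1 (adjusted p = 0.820) or with library sizes not scaled by TMM (adjusted p = 0.196). Without replicate 3, 3 of the 6 regulators were called.

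**Figure D5:**
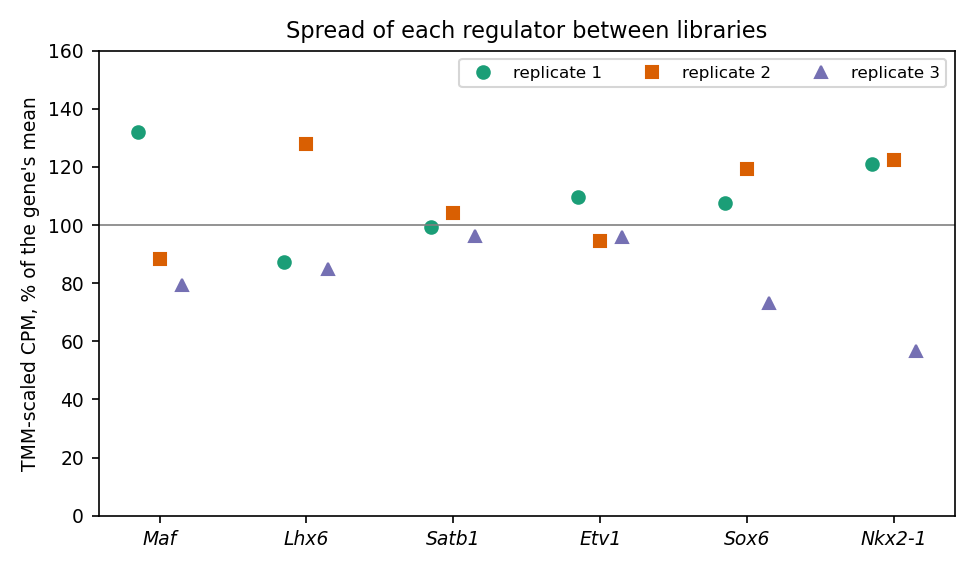
TMM-scaled CPM of each regulator in each library as a percentage of the gene's mean, 1 symbol per replicate, with a line at the mean. Lhx6 stands out in replicate 2 at 128%, Maf in replicate 1 at 132%, and Nkx2-1 stands at 56.6% in replicate 3, while Satb1 and Etv1 stay near the line.

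Maf is also made by microglia, Sox6 by oligodendrocyte precursors, Etv1 and Satb1 by pyramidal cells and Lhx8 by cholinergic neurons, so the markers of these cells were read in the same libraries. All 10 microglia markers had a count, their summed level was 40.1, 23.8 and 30.7 TPM, highest in replicate 1 as Maf was, and 6 of 10 reached 1 TPM in 3 of 3 libraries, among them P2ry12 at 6.245 ± 2.37 TPM, C1qb at 5.27 ± 3.98 TPM and Cx3cr1 at 2.84 ± 0.617 TPM. The complement gene C1qa had 0, 0 and 1 counts. The part of these cells in the Maf level was not tested. Vascular and meningeal markers, 12 of 12 with a count, summed to 33.0, 34.7 and 39.2 TPM, led by Rgs5 at 19.3 ± 0.319 TPM, Dcn at 6.14 ± 1.23 TPM, Vtn at 2.90 ± 0.837 TPM and Col1a1 at 1.70 ± 0.519 TPM, and the endothelial genes Cldn5 and Kdr had 0, 3 and 0 and 0, 1 and 4 counts.

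Markers of oligodendrocyte precursors, 8 of 8 with a count, summed to 92.4, 76.5 and 63.0 TPM. The sum was lowest in replicate 3, as Sox6, Nkx2-1 and the sum of mature oligodendrocyte markers were. It was highest in replicate 1, whereas Sox6 and Nkx2-1 were highest in replicate 2. With TMM scaling, Pdgfra, Olig1, Olig2, Sox10 and Vcan were lowest in replicate 3, and C1ql1, Cspg4 and Gpr17 in replicate 2. The precursor markers were led by Olig1 at 24.3 ± 2.89 TPM, C1ql1 at 17.4 ± 5.28 TPM, Olig2 at 13.7 ± 4.78 TPM and Sox10 at 9.87, 10.7 and 4.65 TPM, with the proteoglycan Cspg4 lowest at 1.21 ± 0.928 TPM. Their part in the Sox6 level was not tested. Mature oligodendrocyte markers, 8 of 8 with a count, summed to 422, 286 and 247 TPM, with Cnp at 102 ± 30.2, Mbp at 37.3 ± 0.220 and Ermn at 33.3 ± 11.5 TPM among the highest and Mag at 3.43 ± 0.261 TPM lowest. Astrocyte markers, 8 of 8 with a count, summed to 495, 419 and 435 TPM, with the transporter Slc1a2 at 370 ± 43.9 TPM holding most of it, then S100b at 29.3 ± 8.70, Sox9 at 18.2 ± 1.83 and Slc1a3 at 12.6 ± 0.421 TPM, and Gja1 at 1.95 ± 0.547 TPM lowest.

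Markers of layer 5 projection neurons, 6 of 6 with a count, summed to 424, 375 and 399 TPM, of which Sulf2 held the most. Their median was 51.1, 50.01 and 57.6 TPM, so that the sum was highest in replicate 1, as Etv1 was, and the median in replicate 3. Sulf2 at 180 ± 23.1 TPM, Fezf2 at 92.8 ± 12.7 TPM, Bcl11b at 66.3 ± 4.50 TPM and Rbp4 at 39.5 ± 7.13 TPM led them, and Pou3f1 was lowest at 4.23 ± 0.805 TPM. The general excitatory list, 9 of 9 with a count, summed to 3633, 3276 and 3346 TPM and was led by Camk2a and Nrgn at 331 ± 76.3 TPM, then Slc17a7 and Tbr1 at 91.5 ± 8.81 TPM, with Emx1 lowest at 1.13 ± 0.646 TPM. How much of the Etv1 and Satb1 reads came from such cells was not tested.

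Cholinergic markers were present while Lhx8 was nearly absent. Their sum was 50.3, 30.2 and 31.0 TPM over 6 genes, all with a count, led by the choline transporter Slc5a7 at 26.9, 13.9 and 10.7 TPM and the acetylcholine-synthesising enzyme Chat at 11.3, 5.74 and 9.86 TPM. The vesicular transporter Slc18a3 stood at 8.04 ± 0.330 TPM and Ngfr at 2.65 ± 0.624 TPM. Isl1, a LIM homeobox factor of cholinergic and striatal neurons, had 1, 8 and 0. Chat and the choline transporter are also made by some Vip interneurons of the cortex. Striatal projection markers, 7 of 7 with a count, summed to 139, 143 and 150.2 TPM, with Pde10a at 54.7 ± 10.6, Ppp1r1b at 23.8 ± 1.61, Drd1 at 20.2 ± 5.39 and Drd2 at 17.8 ± 2.72 TPM highest and Adora2a lowest at 1.94 ± 1.12 TPM.

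Among the genes of the lists above, those closest in level and library pattern were found by the root mean square difference of log2(TPM + 0.1) over the 3 libraries. They were Neurod6 (0.25), Erbb4 (0.33) and Fezf2 (0.36) for Lhx6, and Ldb2 (0.20), Nr2f2 (0.23) and Dlx5 (0.25) for Maf. Etv1 was closest to Npas1 (0.06), Dlx2 (0.19) and Ppp1r1b (0.19), and Satb1 to Bcl11b (0.13), Npas3 (0.17) and Erbb4 (0.28). For Sox6 they were Drd2 (0.24), Drd1 (0.31) and Nrp2 (0.40), and for Nkx2-1 Sox10 (0.25) and Sp8 (0.41). Lhx8 was nearest to Gsx1, Isl1 and Gli1, which had as few counts. The measure rests on 3 libraries and on lengths, and lists of other genes would give other neighbours.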

How the data were processed

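Ribosome-bound RNA was purified from cerebral cortex with anti-EGFP antibodies in 3 libraries, per the labels' protocols. The deposited files hold whole-number counts per gene symbol, not normalized by the authors. The submitters' processing notes name STAR 2.0.0e, HTSeq and mm10 and give no roles. No source used here gives the annotation, counting mode or strand setting. The 5 lines naming no gene stayed out of library sizes. They held 11.8%, 11.0% and 13.1% of records on no feature, 2.49%, 2.83% and 2.68% ambiguous and 11.2%, 11.3% and 13.1% not uniquely aligned in replicates 1, 2 and 3.

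TPM was computed here with merged exon lengths of GENCODE M21 (GRCm38, the assembly of mm10). Of the symbols, 23161 matched directly, 741 by another name and 8630 had no length. Every other gene with at least 10 counts was subtracted from each regulator within libraries on log2(TPM + 0.1), in 1 intercept-only limma 3.58.1 fit per regulator. Two-sided p-values were adjusted over all 7 fits (Benjamini-Hochberg, threshold 0.05), and a pair of regulators took the larger adjusted p of its 2 fits. In the fits of Lhx6, Lhx8, Nkx2-1 and Sox6 the spread was fully pooled, so their p-values are small for 3 libraries, and values without moderation are given beside several. Lhx8 and the other regulators were kept whatever their counts. Variation between libraries was tested by chi-square on counts with TMM-scaled library sizes (edgeR 4.0.16), with DESeq2 1.42.0 as an alternative.

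The 7 regulators, the 17 other gene lists and the tests were chosen with earlier results of these data known. Named are the regulators, from each list the highest 4, the lowest and members at 0, the nearest 3 list genes and genes sharing exons with a regulator, of which some are not reported here. Relatives, cofactors and any further list gene named for its counts or levels were picked after values were seen. Scripts ran in Python 3.11.15 (NumPy 2.4.6, pandas 2.3.3, matplotlib 3.10.9) and R 4.3.3. Intervals and floors cover counting error only.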

Additional observations from a re-analysis of the deposited data

How the results depend on the processing

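No paired analysis was possible because the libraries form 1 group. Of the 21 pairs of regulators 17 passed the threshold, against 15 without moderation, 16 to 17 when 1 library was left out and 17 to 19 under the other alternatives. Lhx6 minus Satb1 (0.29) turned to -0.85 with the longest transcript, -1.53 with the principal transcript and -1.69 with no length. Satb1 minus Maf (-1.03) turned to 0.20 with the longest transcript and 0.17 with no length. Sox6 minus Sox5 (-1.32) turned to 0.038 with the principal transcript. The regulators called for variation between libraries numbered 6, and 3 to 5 when 1 library was left out, and the share of all genes called was 74.3%, and 42.5% to 62.2% when 1 library was left out. The order of Maf, Lhx6 and Satb1 thus changed with the length, and Lhx8, with 6 counts in all, is too shallow for a fold change. Comparisons with relatives, cofactors and caudal regulators, and their alternatives, were added after seeing the data.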
